A study of Sus scrofa with 12 samples.

Results

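SLC7A1, F5, PCDH7, EGR2, MTF1, KLF5, MDC1, AUTS2, TET1 and SMN1 are 10 pig genes whose mRNAs carried peaks of N6-methyladenosine (m6A) with high fold over input in every deposited peak list. They were taken by gene name from the lists and are 10 of 2159 genes with a peak in any list and 10 of 771 with a peak in all 6 lists. The genes were chosen by their folds, so fold is given as a description and no test of it was made. The genes are ranked here by the highest fold of a gene in a list, taken at its lowest over the 6 lists. Of the 10, 9 ranked 10 or better by that value: SLC7A1 at 6.30, F5 at 5.89, EGR2 at 5.79, MDC1 at 5.53, AUTS2 at 5.22, TET1 at 5.19, PCDH7 at 4.87, SMN1 at 4.83 and MTF1 at 4.81. A further gene shared the value of TET1. KLF5 stood at 4.34, with 20 genes that are not described here above it, so the set is not strictly the 10 highest. Of genes left out, PEAK1, a pseudokinase of the cytoskeleton, had 4.81, level with MTF1, and SELPLG, a selectin ligand, had 4.76, both above KLF5. The median over the 771 genes was 2.21, and in 35 of the 60 combinations of gene and list the highest fold exceeded that of 95% of the peaks in its list.

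The m6A mark is written on nascent mRNA by a methyltransferase complex, can be removed by demethylases, and is bound by reader proteins that alter splicing, translation and decay. In mammals it is known to gather around stop codons, in 3′ untranslated regions and in unusually long internal exons. An antibody captures fragments of some length, so a peak marks a stretch that holds a modified base and not the base itself. In skeletal muscle the mark is studied for its part in the proliferation and differentiation of muscle precursors.

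The tissue was longissimus dorsi, the long muscle of the back, from 5-day-old pigs of the Large White breed, a commercial lean breed, and of the Ningxiang breed, an indigenous Chinese breed. Each breed had 3 immunoprecipitated samples and 3 matching inputs, and each replicate gave 1 peak list made by the authors. The labels name no treatment or genotype, and they do not say whether each replicate was a separate pig, so spreads and p-values refer to these samples and may be technical. Read depth is unknown from the lists, and a missing peak means only that none passed the authors' calling limit.

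Large White lists held 2210 to 2527 peaks after repeated rows were dropped, and Ningxiang lists 2030 to 2218. Of 12 muscle fibre markers 10 had a peak in some list and 8 in all 6, among them MYH1, MYH2, MYH4, DES and RYR1; ACTA1 had none and TTN has no curated transcript in the pig gene table. Over the series, 52.8% of genes with a curated transcript had a peak in some list and 18.9% in all 6. Markers of other cells were listed too: 4 of 7 Schwann cell markers, EGR2 among them, 4 of 6 endothelial, 5 of 6 fibroblast, 3 of 5 macrophage, 5 of 6 adipocyte and 4 of 7 satellite cell markers had a peak in some list. EGR2 itself was chosen for its peaks. No marker without a curated transcript had a peak. Among markers with such a transcript, 4 of 4 Schwann cell, 4 of 4 endothelial, 5 of 5 fibroblast and 3 of 3 macrophage markers were listed. So were 5 of 6 adipocyte, 4 of 4 satellite cell and 10 of 11 muscle fibre markers. A peak list does not measure expression, and the cells that supplied the RNA of the 10 genes were not tested.

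The 10 genes carried 148 peaks in all, 24.7 ± 0.577 per list in Large White and 24.7 ± 2.89 in Ningxiang (SD, n = 3 lists per breed). Every gene had at least 1 peak in every list, as the choice of genes required. Folds and p-values here are the authors' values for a peak. The 148 folds ran from 1.70 to 33.9 with a median of 5.06, where the median over all peaks was 2.53. Peaks of these genes were also long in exonic sequence, with a median of 271 bases against 210 for all peaks, and 24.3% of them exceeded 500 exonic bases against 9.06% of all peaks. Fewer crossed a splice junction, 38.5% against 56.5% of all peaks. These shares describe the chosen genes and were not tested.

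**Figure D1:**
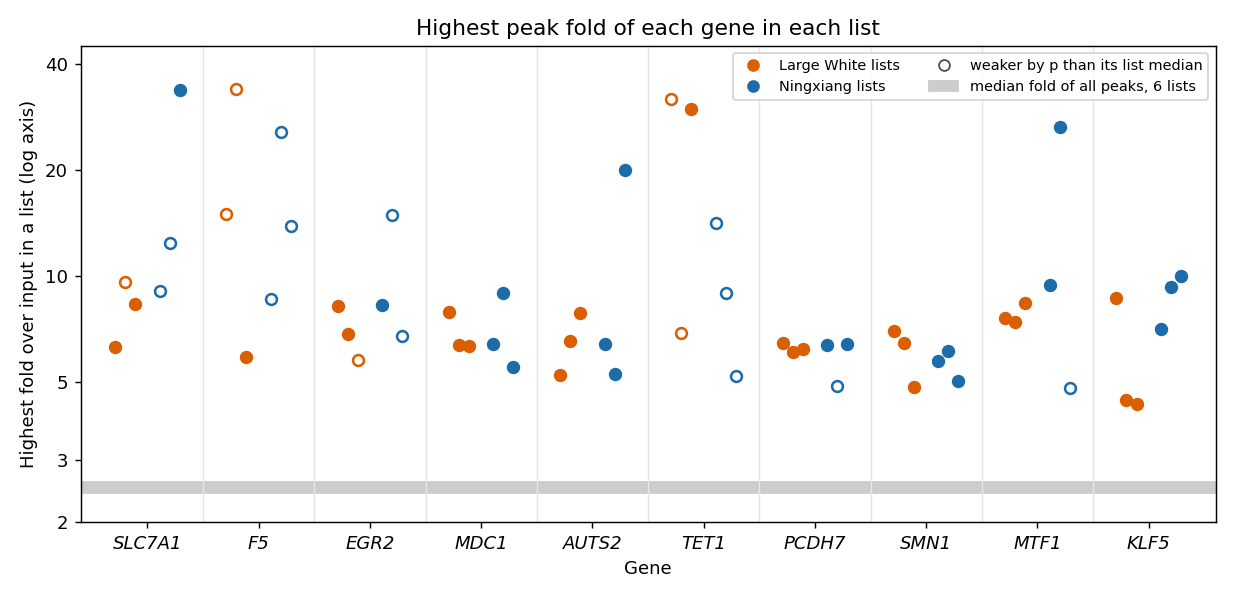
Highest fold over input of any peak of each gene (log axis) in each of the 3 Large White lists (orange, left) and 3 Ningxiang lists (blue, right); an open point is a peak whose p is weaker than the median of its list, and the grey band holds the 6 list medians of fold. The points of SLC7A1, F5, TET1 and MTF1 spread the most, up to 33.9 for F5, while those of PCDH7 lie between 4.87 and 6.46.

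SLC7A1, on the minus strand of chromosome 11 from 6538052 to 6604641 in build susScr11, encodes a plasma membrane carrier of arginine, lysine and other cationic amino acids. Its highest folds were 6.30, 9.63 and 8.32 in Large White replicates 1, 2 and 3, and 9.09, 12.4 and 33.7 in Ningxiang replicates 1, 2 and 3. Ningxiang replicate 3 stood far above the other 5 lists, and the breeds overlapped. All peaks lay in the last exon, exon 13 of 13 counted from the 5′ end, and in 3 lists a peak reached back across the junction into exon 12.

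A stretch of 151 bases of SLC7A1 exon 13, at chromosome 11, 6541796 to 6541946, was under a peak in all 6 lists. A second site, nearer the junction, was listed in Large White replicate 3 and in all 3 Ningxiang lists, and in Ningxiang replicates 1 and 2 it held the highest fold. At the stretch shared by all lists the folds were 6.30, 9.63 and 8.32 in Large White, and 7.58, 3.73 and 33.7 in Ningxiang. The highest fold of SLC7A1 therefore came from a different part of the same exon in these 2 lists. In Ningxiang replicate 2 the shared stretch was weak, with a p-value of 0.0048, the weakest of the 148.

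F5, on the plus strand of chromosome 4 from 81403273 to 81484908, encodes coagulation factor V, the cofactor of factor Xa in thrombin formation; in human the large exon 13 encodes its central B domain. Its highest folds were 15.0, 33.9 and 5.89 in Large White replicates 1 to 3, and 8.59, 25.7 and 13.9 in Ningxiang replicates 1 to 3. All 6 lists had peaks in exon 13 of 25, and Large White replicate 1 also had a peak over exons 2, 3 and 4.

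F5 was the only one of the 10 genes without a base under a peak in all 6 lists; 80.7% of the 771 genes had one. Its Ningxiang peaks were short, and those of replicates 1 and 2 did not overlap: 81459206 to 81459385 in replicate 1, 81458727 to 81459176 in replicate 2, and 3 peaks of 181, 121 and 150 bases in replicate 3. Large White replicates 2 and 3 each had 1 long peak in the exon, 1138 and 1049 bases, and replicate 1 had peaks of 479 and 778 bases there, the shorter of them with the fold of 15.0. No base was under a peak in more than 5 lists, and 5 shared 3 stretches of 61, 121 and 31 bases. Leaving out Ningxiang replicate 1 or replicate 2 gave a base shared by all remaining lists, so the lack of one rested on those 2 lists. F5 peaks were weak by p in 5 of 6 lists: only in Large White replicate 3, with a log10 p of -13.9, was the highest-fold peak stronger than the median peak of its list.

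PCDH7, on the plus strand of chromosome 8 from 23459475 to 23872203, encodes a protocadherin, a cell adhesion protein of the cadherin superfamily. The highest folds of PCDH7 spanned the least of the 10 genes, 6.46, 6.09 and 6.22 in Large White and 6.35, 4.87 and 6.41 in Ningxiang. Peaks in exons 2 and 3 of 5 were listed in all 6 lists. The stretch shared by all lists was 210 bases in exon 3, 23462311 to 23462520, with a further 31 bases in exon 2. The listed bases of these exons were only 58 apart in the genome. Exon 3 held the highest fold in 4 lists.

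The 3′ end of PCDH7 was listed less regularly. A peak in the 3′ untranslated region that ran to the end of the transcript was present in 3 of 3 Large White lists and in 1 of 3 Ningxiang lists, replicate 3, and it held the highest fold in Large White replicate 3. Within exon 2, a run of 299 bases, 23461804 to 23462102, was under a peak in all Large White lists and in no Ningxiang list. In Large White replicate 2 that peak had a log10 p of -4.83. With peaks of p 1e-05 or lower alone, PCDH7 had no such run. A Large White run of any length, down to 1 base, was seen in 21.9% of the 771 genes. A run of at least 50 bases in either direction was seen in 13.9%.

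EGR2, on the minus strand of chromosome 14 from 66285809 to 66288650, encodes a zinc-finger transcription factor known for its role in Schwann cell myelination. The highest folds of EGR2 were 8.22, 6.84 and 5.79 in Large White, and 8.29, 14.9 and 6.77 in Ningxiang. Peaks lay in exon 2 of 2 in all 6 lists, and Ningxiang replicate 1 reached into exon 1. The lists agreed on the exon and hardly on the site: 31 bases, 66286738 to 66286768, were shared by all 6, out of 1260 under any peak. Exonic cover was 780, 960 and 811 bases in Large White, while Ningxiang had 1260 bases in replicate 1 and 181 and 302 in replicates 2 and 3. Ningxiang thus held both the longest and the shortest cover. The highest fold, 14.9, came from the 181-base peak, which had a log10 p of -3.76.

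MTF1, on the minus strand of chromosome 6 from 93839174 to 93884404, encodes the zinc-sensing factor that switches on metallothionein genes. MTF1 reached folds of 7.59, 7.42 and 8.37 in Large White and 9.43, 26.5 and 4.81 in Ningxiang. Ningxiang replicates 2 and 3 thus bracketed all Large White values. The highest fold lay in a peak that covered exons 10 and 11 in 5 lists, and in Large White replicate 3 in a peak over exons 8 and 9. Exons 9, 10 and 11 of 11, the 3′ end of the transcript, were under peaks in all 6 lists, and 479 bases were shared, 240 of them in exon 9, 93847442 to 93847681, and 226 in exon 11, 93840634 to 93840859. Peaks nearer the 5′ end, in exon 2, were listed in Large White replicates 2 and 3 and in Ningxiang replicate 3.

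KLF5, on the plus strand of chromosome 11 from 45370009 to 45386673, encodes a Krüppel-like zinc-finger transcription factor. It had 1 peak per list, with folds of 8.64, 4.46 and 4.34 in Large White and 7.07, 9.29 and 9.97 in Ningxiang. The position was nearly the same throughout: 4 lists had an identical peak of 1105 exonic bases over exons 2, 3 and 4 of 4, ending at the transcript end, 45386673. Ningxiang replicate 2 stopped within exon 2 after 807 bases, and Ningxiang replicate 3 began in exon 1 and covered 1135. The 807 bases of exon 2, 45372671 to 45373477, were shared by all 6 lists, 71.1% of the 1135 under any peak. The peaks of KLF5 were strong, with log10 p from -25.8 to -78.

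MDC1, on the minus strand of chromosome 7 from 23230097 to 23243494, encodes a nuclear scaffold that binds phosphorylated histone H2AX at DNA breaks. It had the most exonic cover of the 10 genes, 2455, 2515 and 3652 bases in Large White and 2636, 2427 and 2754 in Ningxiang. Highest folds of MDC1 were 7.93, 6.35 and 6.32 in Large White and 6.42, 8.94 and 5.53 in Ningxiang, and in every list that peak lay in exon 9 of 14 and was also the strongest of the gene by p. The highest-fold peak was 1705, 1705 and 1944 exonic bases long in Large White, and 1765, 1227 and 1705 in Ningxiang, where replicate 3 reached 47 bases into exon 8. The core of that peak, 23234532 to 23235758, was shared by all 6 lists over 1227 bases. Exons 4, 5, 6 and 7 were under peaks in all lists as well, at lower folds.

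AUTS2, on the plus strand of chromosome 3 from 13565439 to 14794360, encodes a partner of a noncanonical Polycomb complex that is linked to gene activation. In AUTS2 the highest folds were 5.22, 6.54 and 7.83 in Large White and 6.40, 5.27 and 20 in Ningxiang. Peaks fell in 3 zones in every list: exons 9 to 12, exon 19 and exon 20 of 20. Exon 20 held the longest shared stretch, 360 bases from 14793702 to 14794061, followed by 181 bases from 14794180 to the end of the transcript, 14794360. The highest fold lay in exon 20 in 5 lists, and in Large White replicate 3 it lay in the peak that crosses exons 8 to 16. In all 6 lists a peak that the authors placed in the 3′ untranslated region ran to the transcript end. It held the highest fold in Large White replicate 1 and Ningxiang replicates 1 and 3.

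That junction-crossing peak of AUTS2 covered 959, 989 and 959 exonic bases in Large White and 330, 480 and 869 in Ningxiang, and was singled out after its values were seen. It began in exon 8 and ended in exon 16 in 3 of 3 Large White lists and in Ningxiang replicate 3, whereas in Ningxiang replicates 1 and 2 it began in exon 9 and ended in exons 12 and 13. A run of 60 bases in exon 16, 14784939 to 14784998, was listed in all Large White lists and in no Ningxiang list, since Ningxiang replicate 3 stopped 1 base before it.

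TET1, on the plus strand of chromosome 14 from 71675671 to 71812732, encodes a dioxygenase that oxidises 5-methylcytosine in DNA. TET1 had highest folds of 31.8, 6.88 and 29.7 in Large White and 14.1, 8.95 and 5.19 in Ningxiang. These folds came from different exons: exons 10 to 12 in Large White replicate 1, exons 9 and 10 in replicate 2, exons 11 and 12 in replicate 3, and in Ningxiang exon 1, exons 11 and 12, and exon 2 in replicates 1, 2 and 3. Exons 11 and 12 of 12 were listed in all 6 lists, and the shared bases were 86 in exon 11, 71810578 to 71810663, and 64 in exon 12, 71811682 to 71811745. On that shared site the folds were 31.8, 5.87 and 29.7 in Large White, and 3.74, 8.95 and 3.13 in Ningxiang. Of the 2608 exonic bases under any TET1 peak, 57.4% were listed in 1 list only, the highest share of the 10 genes.

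SMN1, on the minus strand of chromosome 16 from 47751012 to 47777318, encodes the protein that loads Sm cores onto small nuclear RNAs, and loss of it causes spinal muscular atrophy in human. Its highest folds were 6.97, 6.46 and 4.83 in Large White and 5.72, 6.11 and 5.04 in Ningxiang. In human SMN1 has a near-identical copy; the pig gene table used here lists no SMN2, and how reads of similar copies were handled is not given. Exons 1 to 6 of 8 were under peaks in all 6 lists, with 443 shared bases in 735. Large White replicates 2 and 3 and Ningxiang replicate 3 joined them in a single peak of 6 blocks, and the other 3 lists had 2 peaks, of which the one over exons 1 to 3 was the weaker, with folds of 3.08 in Large White replicate 1 and 3.03 and 2.55 in Ningxiang replicates 1 and 2. SMN1 held the strongest peak by p, with a log10 p of -138 in Large White replicate 1, and none of its highest-fold peaks was weaker than -57.5.

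**Figure D2:**
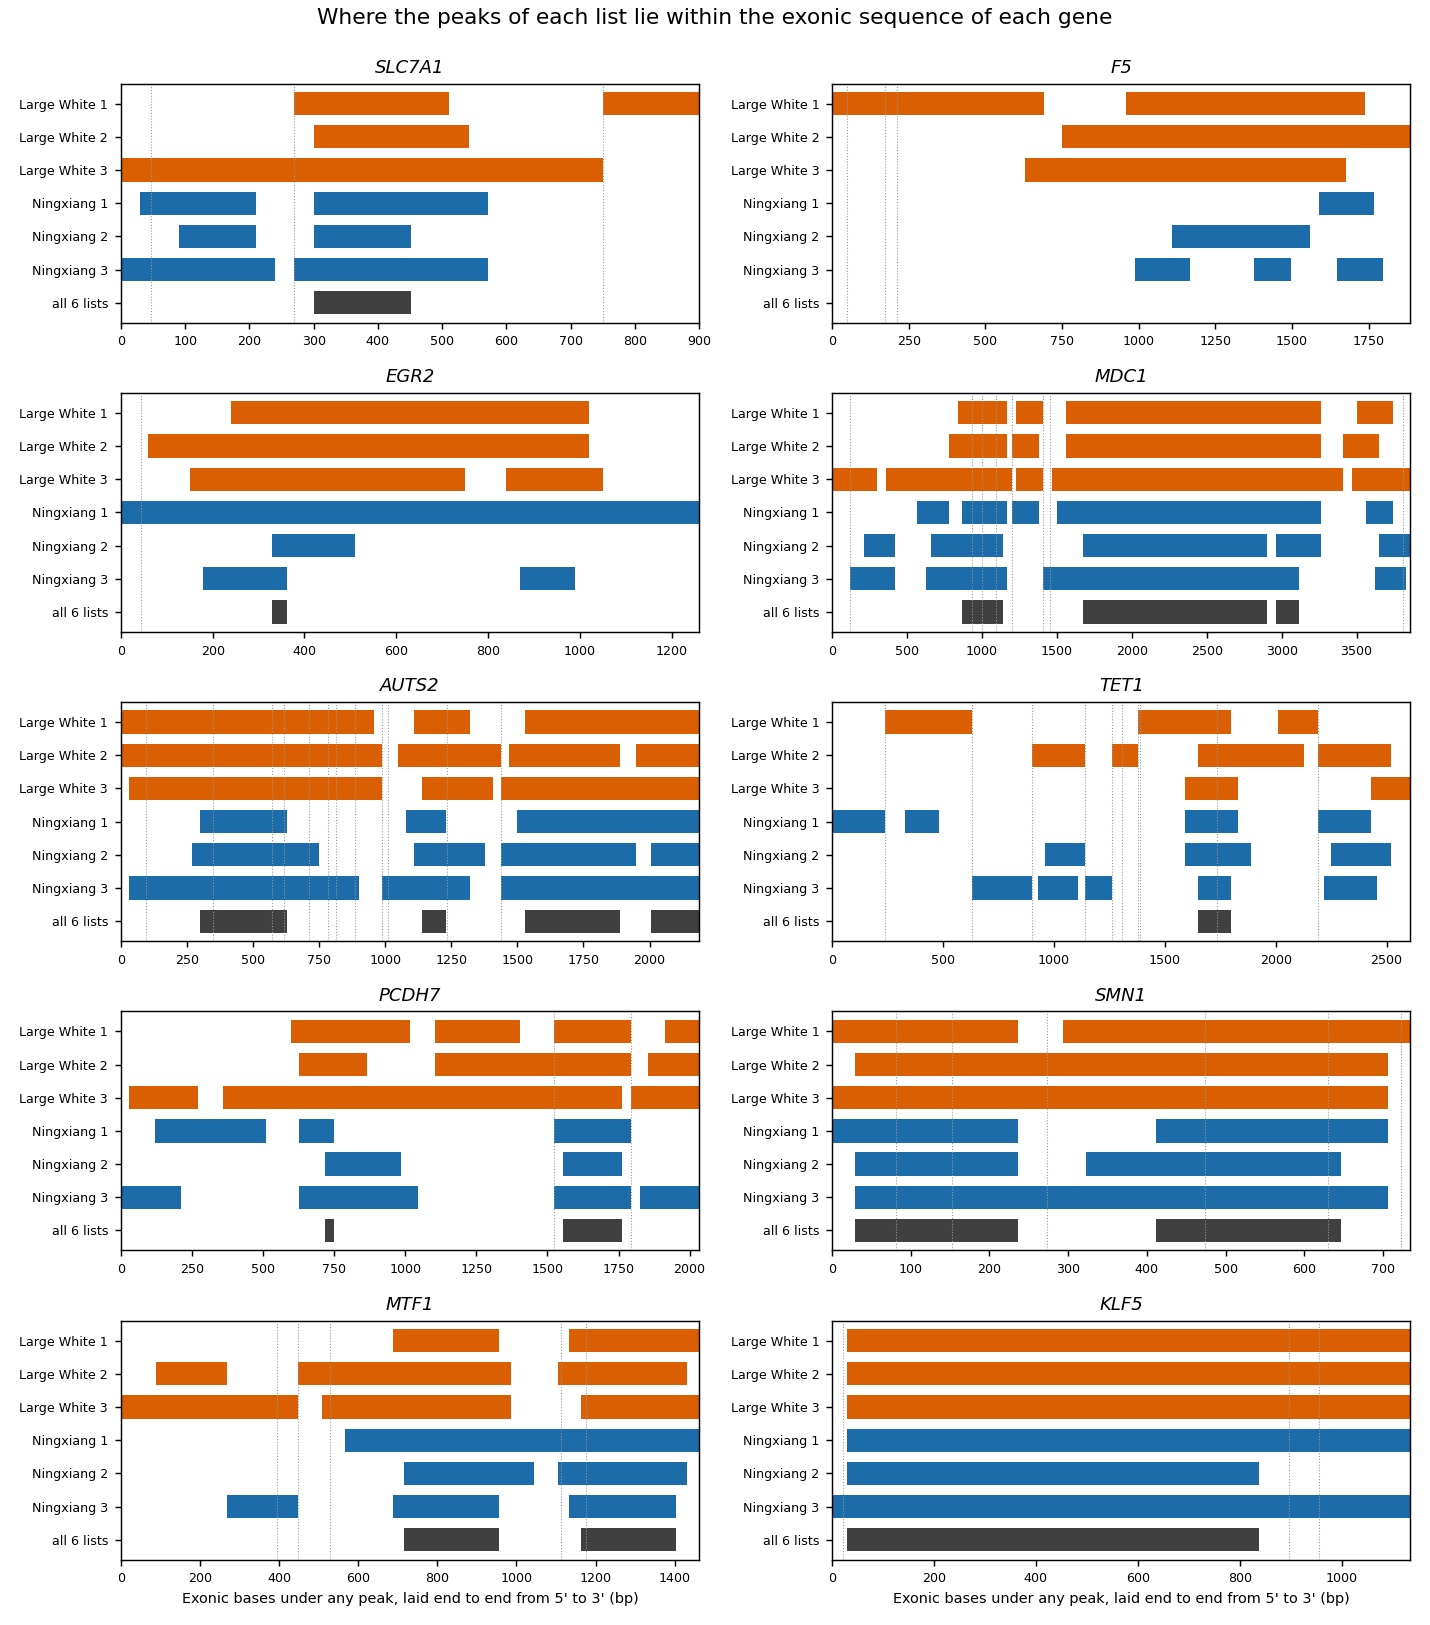
Exonic bases under the peaks of each list, laid end to end from the 5′ to the 3′ side for each gene, with Large White lists (orange) above Ningxiang lists (blue) and the bases shared by all 6 lists in dark grey; dotted lines mark where the sequence is not continuous in the genome. The bars of KLF5 and SMN1 share the largest parts, 71.1% and 60.3% of the listed bases, while F5 has no shared base and EGR2 has 31.

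Of the 10 genes, 9 had at least 1 exonic base under a peak in all 6 lists, a share close to the 80.7% of the 771 genes that did. Agreement of site ranged widely among the 10. The shared bases were 71.1% of all listed bases for KLF5, 60.3% for SMN1, 44.0% for AUTS2, 42.7% for MDC1 and 32.8% for MTF1. They were 16.8% for SLC7A1, 11.8% for PCDH7, 5.75% for TET1, 2.46% for EGR2 and 0 for F5. The median of the 10 was 24.8%, against 22.5% for the 771 genes. The mean Jaccard index of exonic bases over the 15 pairs of lists gave a like picture, with 0.902 for KLF5 and 0.818 for SMN1 at the upper end and 0.301 for F5 and 0.264 for TET1 at the lower end, and a median of 0.525 for the 10 against 0.552 for the 771.

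**Figure D3:**
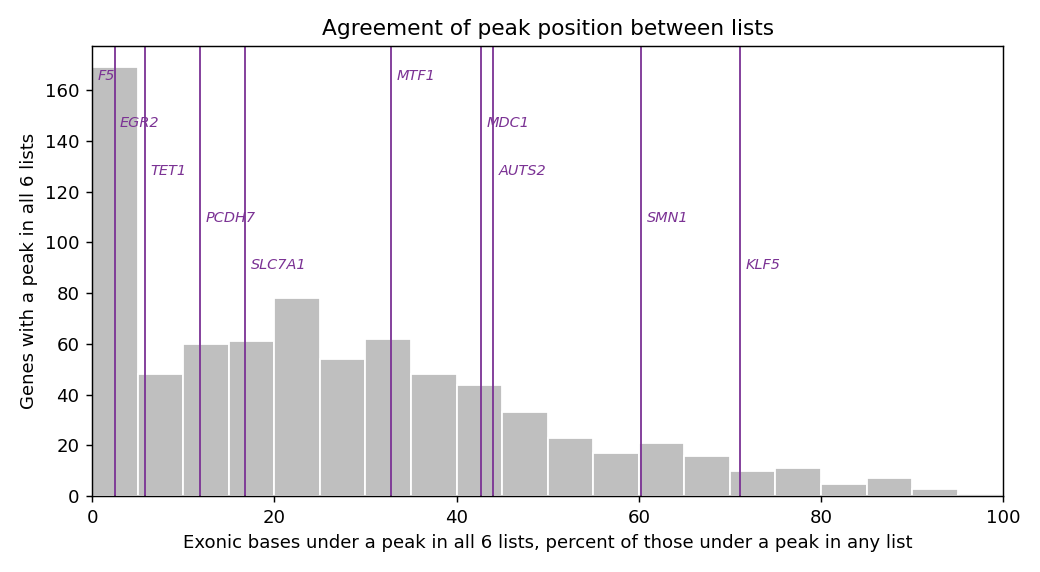
Histogram of 771 genes by the exonic bases under a peak in all 6 lists as a percentage of the bases under a peak in any list, with purple lines at the 10 genes. The lines run from 0 for F5 to 71.1% for KLF5.

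Fold and p did not move together in all 10 genes. In MDC1, AUTS2, SMN1 and KLF5 the highest-fold peak had the gene's lowest p in 24 of 24 combinations of gene and list. The same held in 18 of 24 for SLC7A1, F5, EGR2 and TET1, and in 9 of 12 for PCDH7 and MTF1. Where a gene had 1 peak in a list this could not fail. That was so for KLF5 in every list, and for SMN1, SLC7A1, F5, EGR2 and MTF1 in some. None of the highest-fold peaks of MDC1, AUTS2, SMN1 and KLF5 was weaker by p than the median of its list. For SLC7A1, F5, EGR2 and TET1 the highest-fold peak was weaker than that median in 16 of 24, and for PCDH7 and MTF1 in 2 of 12. This division was made after the values were seen. The folds above 25 belonged to SLC7A1, F5, TET1 and MTF1, and their log10 p ran from -6.95 to -23.4. With peaks of p 1e-05 or lower alone, SLC7A1, F5 and EGR2 no longer had a peak in every list.

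**Figure D4:**
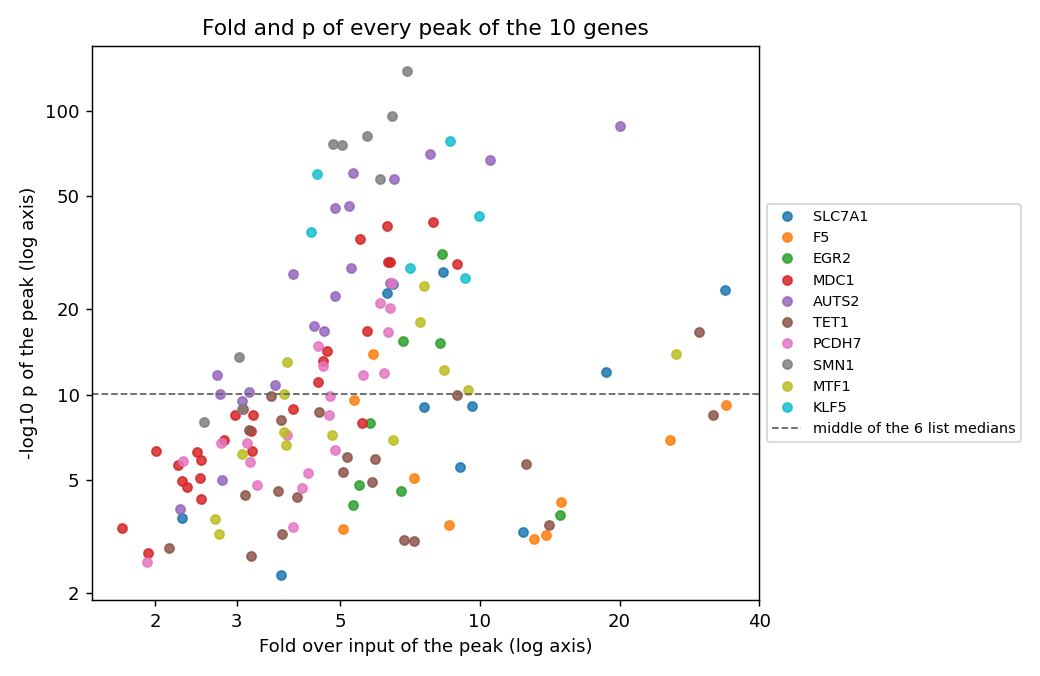
Fold over input and -log10 p (both log axes) of the 148 peaks, coloured by gene; the dashed line is the middle of the 6 list medians of -log10 p. Points of SMN1, up to 138, KLF5 and AUTS2 reach highest, while F5 and TET1 points above a fold of 10 mostly lie below the line.

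Breeds were compared on what the choice of genes did not use directly, the exonic bases under peaks and the number of peaks per gene. Both measures come from the same peak calls as fold. F5 was the only gene of the 10 whose lists did not overlap between breeds: its peaks covered 1468, 1138 and 1049 exonic bases in Large White and 180, 450 and 452 in Ningxiang. The means were 1218 ± 221 and 361 ± 156 bases (SD, n = 3 each), a difference of 858 bases (exact two-sided permutation p = 0.1, below which 3 lists against 3 cannot go, and 0.701 after Benjamini-Hochberg adjustment over 771 genes). Such a gap with Large White higher was seen in 10.8% of the 771 genes and with Ningxiang higher in 3.5%, so 1 of 10 is near the background. F5 kept its gap whichever list was left out, with differences of 733 to 942 bases. With only the stronger 50% of each list by p, F5 kept a peak in Large White replicate 3 alone, of 1049 bases. The difference of 350 bases in that setting came from this 1 list, and the gap was gone.

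The other 9 genes overlapped between breeds in exonic cover. AUTS2 had 1829, 2040 and 1979 bases in Large White and 1170, 1442 and 1948 in Ningxiang. PCDH7 had 1108, 1109 and 1886 in Large White and 780, 479 and 1109 in Ningxiang, and SMN1 had 677, 677 and 706 in Large White and 531, 531 and 677 in Ningxiang. In these 3 genes Ningxiang replicate 3 was the only Ningxiang list within the Large White range, and without it 4 of 10 genes showed a gap, where 24.8% of the 771 genes did. Without Ningxiang replicate 1 EGR2 joined F5, for 2 genes (21.4% of the 771), without Large White replicate 1 AUTS2 and MTF1 did, for 3 (22.2%), and without Large White replicate 3 TET1 did, for 2 (23.3%). None of the 10 passed an adjusted threshold of 0.05, which 3 lists against 3 cannot reach.

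**Figure D5:**
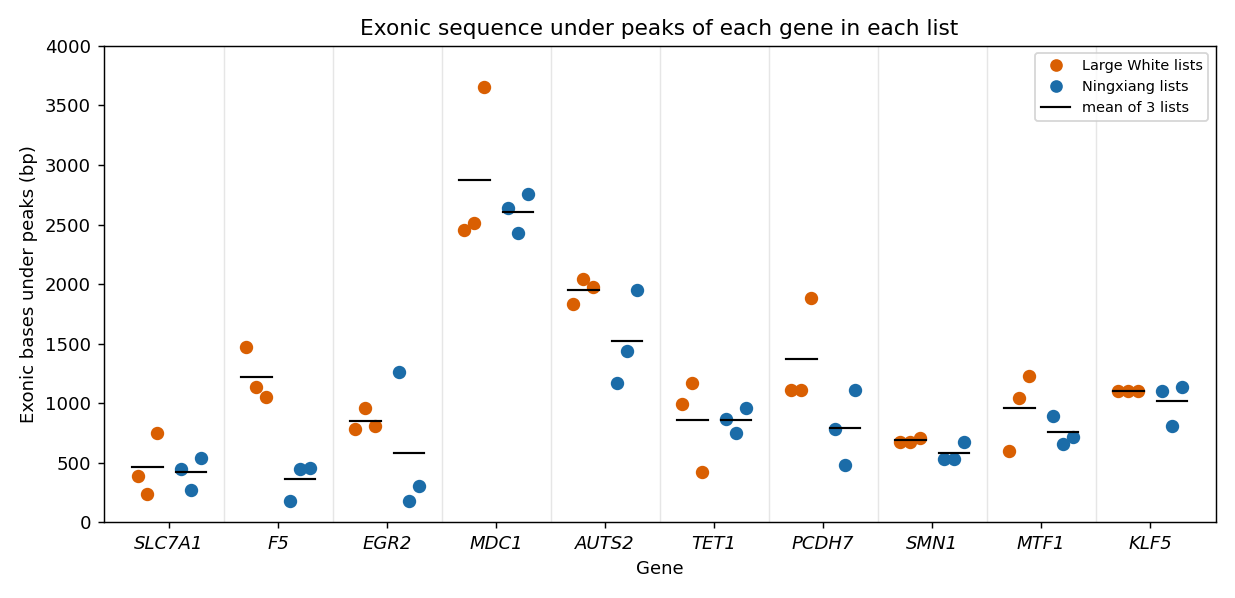
Exonic bases under the peaks of each gene in the 3 Large White lists (orange, left) and the 3 Ningxiang lists (blue, right), with the mean of each 3 as a bar. For F5 the Large White points, 1049 to 1468, lie above the Ningxiang points, 180 to 452; in the other genes the points of the breeds overlap.

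The number of peaks per gene did not separate the breeds for any of the 10 genes, where 2.33% of the 771 had every Large White list above and 0.908% every Ningxiang list above. The exact permutation p was 0.4 or higher for each of the 10 genes (n = 3 per breed), and the adjusted p was 1 for each. The highest number was 6 peaks, for MDC1 in Large White replicate 3. Next came 5, for MDC1 in Ningxiang replicates 1 and 2 and for TET1 in Ningxiang replicate 3. KLF5 had 1 in every list.

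Exonic runs listed in every replicate of a single breed were found in F5, MDC1, AUTS2 and PCDH7, all in the Large White direction, in which 21.9% of the 771 genes had such a run. In the Ningxiang direction none of the 10 genes had one, where 8.04% of the 771 did. The runs of F5, in exon 13, were 29 bases each, that of MDC1, in exon 9, 59 bases, that of AUTS2 60 and that of PCDH7 299. These shares count runs of any length. With runs of at least 50 bases alone, 3 of the 10 genes had one, where 13.9% of the 771 did in either direction. Of peaks within 1 exon, 88.1% had a length within 2 bases of a multiple of 30, so the shorter runs are 1 or 2 such steps at the edge of a peak. Exonic cover of the 10 genes was also long, with a median of 858 bases per list against 429 for the 771 genes, and the part of length in the count of runs was not tested.

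Of 120 relatives of the 10 genes in family or pathway, 51 have a curated transcript in the pig gene table, the kind of transcript that nearly every listed peak was placed on. Among them 28 had a peak in some list (54.9%) and 16 in all 6 (31.4%); of all 3980 genes with a curated transcript, 52.8% had a peak in some list and 18.9% in all 6. Krüppel-like factors gave 12 of the 28 and 10 of the 16: of 16 relatives of KLF5, all with a curated transcript, those with a peak in all 6 lists were KLF2, KLF3, KLF4, KLF6, KLF7, KLF9, KLF10, KLF11, KLF13 and KLF15. Their lowest best folds ran from 1.74 for KLF6 to 3.29 for KLF15, below the 4.34 of KLF5, while in single lists KLF13 reached 20.3, above the highest fold of KLF5, 9.97. The genes were chosen by their folds, so the place of KLF5 above its relatives by lowest best fold is a description only. KLF4, a factor of epithelial and vascular cells, shared 805 exonic bases between all lists, close to the 807 of KLF5.

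Among relatives of F5, F8, the homologous coagulation factor VIII, had a peak in all 6 lists with highest folds of 4.41 to 5.81 and 392 shared bases, and THBD, the endothelial thrombin receptor, had 2.90 to 5.64. The maintenance methyltransferase DNMT1 and the de novo methyltransferase DNMT3A, which act on the base that TET1 oxidises, had highest folds of 2.53 to 4.56 and 2.70 to 4.81, and OGT, a glycosyltransferase that binds TET proteins, 1.83 to 3.32. RING1, a ubiquitin ligase of the Polycomb complex of AUTS2, had 3.72 to 7.48, and CSNK2B, a casein kinase 2 subunit, was listed in 2 Large White lists at 1.69 to 1.71. In the remaining families no relative was listed in every list: SLC7A2 had peaks in 4 lists at highest folds of 1.96 to 3.26, SLC7A7 in 2 at 3.03 to 4.18 and SLC3A1 in 1 at 10.7. ATM, a kinase of the DNA break response, had peaks in 5 lists at 3.84 to 22.4, GEMIN8 in 2 at 2.36 to 2.54 and SLC30A1, a zinc exporter, in 3 at 3.88 to 6.78. Relatives of EGR2 and PCDH7 had none, and 1 of 5 and 0 of 11 of them have a curated transcript.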

How the data were processed

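MeRIP-seq of longissimus dorsi gave 6 deposited peak lists, 3 per breed, each called per replicate. Per the labels' protocols, mRNA was fragmented and enriched with an m6A antibody, and unenriched fragments served as input. The genome build was susScr11, per the submitters' processing notes, which also list HOMER, ChIPseeker 1.30.2 and FastQC 0.11.9. Which aligner and which peak caller were run is not given in the sources used here. Per the file headers, each peak has a fold enrichment, a linear ratio over input, a p-value, and its log10, which the authors deposited in a column of its own and which serves here as the score of a peak's strength. Read depth is unknown, so no counting interval could be given.

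Starts count from 0 in the files, and 1 was added. Of 13487 rows, 28 repeats were dropped. Exonic bases are the listed blocks; the listed exon is that of the leftmost block, later blocks were numbered onward from it, and minus-strand numbers were turned round to count from the 5′ end. Genes were taken by the gene column. Bases shared by lists were counted at 1 bp or more. Exact two-sided permutation tests with Benjamini-Hochberg adjustment ran over all 771 genes with a peak in all 6 lists. The gap calls were also run on simulated data, and the outcome is not given here. Relatives were named if listed in all 6 lists, or in families with at most 3 listed genes. The work used Python 3.11.15, pandas 2.3.3, NumPy 2.4.6 and matplotlib 3.10.9. The genes and gene lists were chosen with earlier results of these data known. Alternatives were stronger peaks, equal list length, left-out lists, genomic spans, longer overlaps and pairing by replicate number. No sequence is printed because no genome was used here.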

Additional observations from a re-analysis of the deposited data

How the results depend on the processing

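The number of the 10 genes with a gap between breeds in exonic cover, 1 with all peaks, was 0 with only the lower-p 50% of each list (11.4% of the 771 genes), and 1 to 4 when a list was left out (21.4% to 26.2%). Deviations in lists of the same replicate number had correlations of -0.00842 to 0.0264 over 771 genes, against -0.0643 to 0.0669 for lists of different numbers. The labels give no more than the number, and whether such lists share anything else was not tested. With the replicate block, the count of genes whose 3 paired differences had one sign was 4 for exonic cover (222 of the 771 genes) and 0 for peaks. In that setting 3 pairs allow no p below 0.25. Without a list, 0 to 1 genes had a gap in number of peaks, PCDH7 without Ningxiang replicate 3, where 7.26% of the 771 genes had one. Genes with a base shared by all lists fell to 5 of 10 with the lower-p 50% (49.5% of the 771), and numbered 9 to 10 with a list left out (82.1% to 85.3%). Genes with a breed-only run fell to 1 with the lower-p 50%, AUTS2 (17.0% of the 771 in either direction). They numbered 4 to 6 with a list left out (43.3% to 48.4%). With peaks of p 1e-05 or lower they numbered 4, with TET1 in and PCDH7 out (25.6%). Of 110 per-gene differences in exonic cover under alternatives, 97 kept their direction and 13 did not. The 97 include 10 from pairing by replicate number, which leaves the difference unchanged, so these could not reverse. All of the 13 were in genes whose lists overlapped: the TET1 difference, -0.333 bases, became 80.0 with the lower-p 50% and 1601 over genomic spans, and ran from -155.5 to 219.5 with a list left out. With the lower-p 50%, TET1 kept a peak in Large White replicate 3 alone. MDC1 became -111 with equal list length and ran from -121 to 478, SLC7A1 became -326 over genomic spans and ran from -105 to 149.5, and KLF5 ran from -15.0 to 149. Over genomic spans EGR2 became -178 and MTF1 -1069. The cause of these changes was not tested. Depth is unknown, which limits every statement on an absent peak.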
